A study of Mus musculus with 13 samples.

Results

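The potassium channel genes of mouse claustrum neurons are described here, taken as every row of the deposited count tables whose symbol starts with Kcn. There were 88 such rows among the 23427 genes of either table, in 21 subfamilies by the letters of the symbol, and 1 of them had no count in the cells kept. The rows held 0.283% of all counts in these cells. The claustrum is a thin sheet of grey matter beneath the insular cortex, and the study used single-cell RNA sequencing of manually harvested cells to ask how its excitatory neurons differ from each other and with their projection target.

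All cells came from wild-type mature male C57BL/6 mice. In 1 mouse (the blindly sampled mouse), rAAV2-retro-CAG-GFP had been injected into the anterior cingulate cortex to guide microdissection, and cells were picked regardless of GFP. In the other 3 (projection mice 1, 2 and 3), green retrobeads had been injected into the lateral entorhinal cortex (LEC) and red retrobeads into the retrosplenial cortex (RSC), and both bead-labeled and unlabeled cells were picked. Of 1112 harvested cells, the 1011 with a count of both Snap25, a neuronal marker, and Slc17a7, the vesicular glutamate transporter of cortical excitatory cells, were kept.

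The kept cells were divided by genes other than the channels. The 438 Synpr-high cells had at least 200 CPM (counts scaled to a common library total) of Synpr, which marks the claustrum core in the study. The 359 Slc30a3-high cells had at least 20 CPM of Slc30a3, a marker of the claustrum shell in the study, and less Synpr than the first limit. The other 214 cells are called the rest. Of these, 147 had a count of any of the layer 6 markers Ctgf, Sla, Foxp2, Rprm, Syt6, Fezf2 and Tle4. The share of such cells in the other classes was not taken. By projection label, 247 cells were RSC-projecting, 286 were LEC-projecting and 478 had no label. Counts were summed per mouse within each class or label, so the mouse was the replicate, with 4 mice per class and 3 per label.

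Potassium channels let potassium leave the cell and so set the resting potential, the shape of the action potential and the rate of firing. Voltage-gated subunits form tetramers, which differ in how fast they open and close, and silent subunits join these tetramers without forming channels of their own. Other families respond to calcium, sodium, G proteins, lipids or acid, and small accessory proteins change the gating and trafficking of the pore.

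The table of the blindly sampled mouse held 70 of the 88 rows and that of the projection mice 86. A row absent from a table was set to 0 there, which touched 18 rows in the blindly sampled mouse, none with more than 148 counts in all kept cells. Kept cells of the projection mice had median totals of 138535 to 154262 counts, and those of the blindly sampled mouse 26023. Each of the 13 plates held cells of 1 mouse and 1 label except plate 12, which held 44 LEC-projecting and 34 RSC-projecting kept cells of projection mouse 3, so projection label and plate cannot be told apart elsewhere. Cell barcodes were used again on each plate, and 231 of the 256 barcodes of the blindly sampled mouse also occurred in projection mice.

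The class labels were checked against their other markers. Gnb4, Lxn, Gfra1, Nr4a2 and Slc17a6 summed to 4257 to 4813 CPM in the Synpr-high cells of the 4 mice and to at most 775 CPM in the other classes. Nnat, Spon1 and Col6a1, the other markers of the Slc30a3-high class, did not set that class apart from the rest, with sums of 712 to 1888 CPM against 251 to 1838 CPM. The layer 6 list (the markers named above and Pcp4) summed to 1075 to 3216 CPM in the rest and to at most 546 CPM elsewhere. Of the inhibitory markers, Gad1 and Gad2 were both counted in 4 kept cells, 3 of them Synpr-high and RSC-labeled. The inhibitory list (Gad1, Gad2, Slc32a1, Pvalb, Sst and Vip, of which 5 had rows) reached 143 CPM in Synpr-high sums. It reached 123 CPM in the rest and 3.78 CPM in Slc30a3-high sums. By label, it was at 6.92 to 200 CPM in RSC sums and at most 0.887 CPM in LEC sums. The oligodendrocyte list reached 1036 CPM in the Slc30a3-high sums, 341 CPM in the Synpr-high sums and 66.6 CPM in the rest. Astrocyte, microglial and vascular lists stayed at or under 10.8 CPM in every class sum. The part of these in the results below was not tested, except where cells with Gad1 and Gad2 were left out.

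Summed over all rows, channel genes were slightly higher in Synpr-high cells than in the other classes. Their summed level was 3035, 3104, 2944 and 2917 CPM in the Synpr-high cells of the blindly sampled mouse and projection mice 1 to 3, in that order, which is used throughout. It was 2859, 2900.5, 2747 and 2581 CPM in the Slc30a3-high cells and 2833, 2750.5, 2603 and 2406 CPM in the rest. The lowest Synpr-high sum lay just above the highest of the others, and the Slc30a3-high and rest sums overlapped. By subfamily, Kcna, Kcnc and Kcnv were higher, and Kcnab, Kcnf, Kcng and Kcnmb lower, in each Synpr-high sum than in any sum of the other classes. The levels of one gene are compared between groups here, not with those of another gene.

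**Figure D1:**
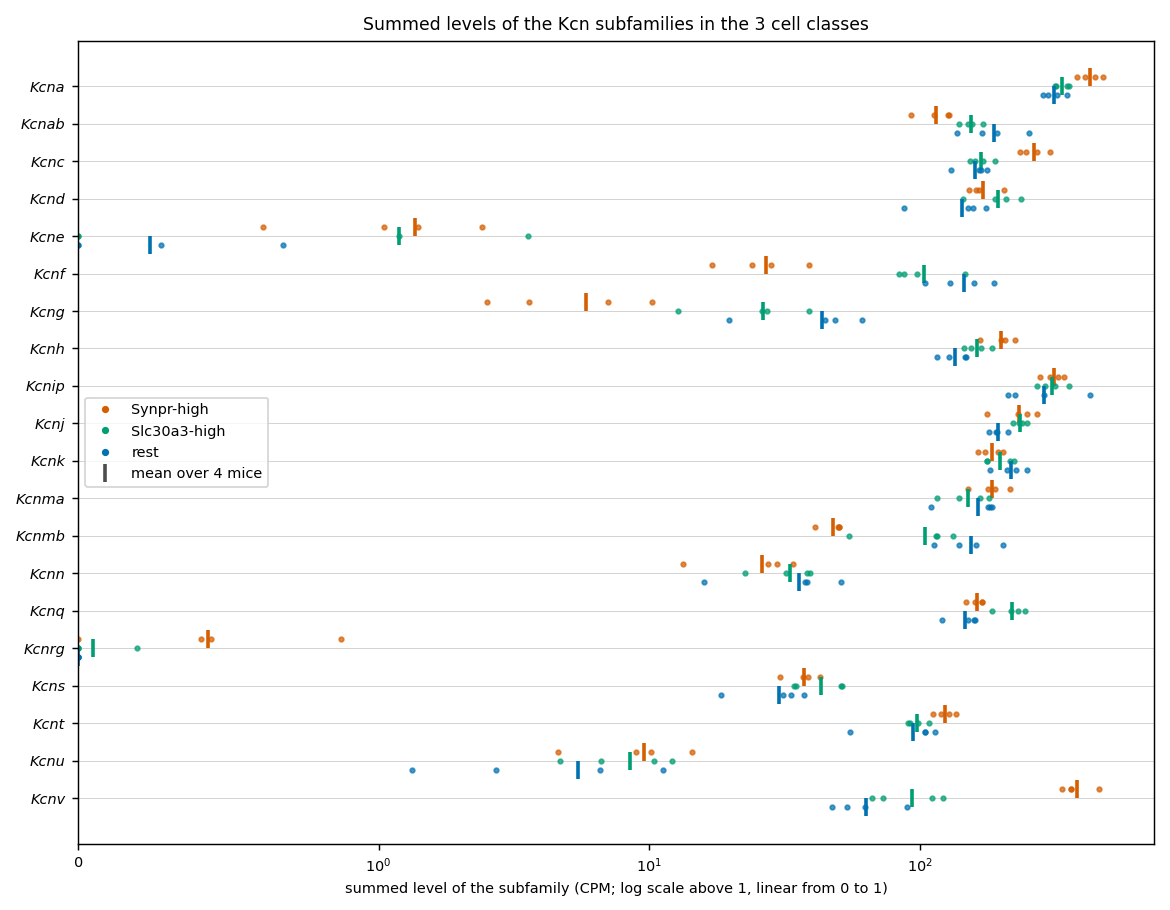
Summed levels of Kcn subfamilies (x axis, CPM, log scale above 1 and linear from 0 to 1) in the Synpr-high, Slc30a3-high and rest cells; small points are the 4 mice and vertical marks their mean. Kcnv sat at 337 to 461 CPM in Synpr-high cells and at 66.8 to 123 CPM in Slc30a3-high cells, while the subfamilies not named above overlapped between Synpr-high cells and at least 1 other class; rows absent from the table of the blindly sampled mouse, such as those of Kcne other than 1 row, were plotted as 0.

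The first question was which channel genes set the Synpr-high class apart. Against Slc30a3-high cells, 61 Kcn rows were tested and 10 passed an adjusted p of 0.05 (edgeR, adjusted over all genes tested), 3 higher and 7 lower in the Synpr-high cells. Of all 13104 genes tested, 6.71% passed, 3.28% higher and 3.43% lower. Against the rest, 15 of the 61 rows passed, 6 higher and 9 lower, beside 8.97% of all genes, of which 4.24% of genes were higher and 4.74% lower. Blocked on the mouse, 21 rows passed against the rest, 12 higher and 9 lower (909 and 914 of all genes). With sums per plate and the plate as a block, 15 of 46 passed, 9 higher and 6 lower (802 and 676 of 10726 genes). The balance of directions against the rest thus differed between runs, and the plate run also differed in its sums and rows tested. Against Slc30a3-high cells, 5 were higher and 8 lower with the mouse block (737 and 736 of all genes). By plate, 4 were higher and 8 lower there (642 and 595 of all genes). The cause of these shifts was not tested. The median log2 fold change of the 61 rows was -0.14 against Slc30a3-high cells (0.0060 over all genes) and 0.33 against the rest (0.0096 over all genes). The other 27 rows, each with at most 148 counts, were too low to be tested. The 6 genes Kcnc1, Kcnc4, Kcnf1, Kcng1, Kcnip3 and Kcnv1 passed in both comparisons under each alternative run, which included leaving out each mouse and the use of unlabeled cells only. Both comparisons share the Synpr-high sums. Kcnv1, Kcnk2, Kcnc1, Kcnc4, Kcnf1, Kcnip3, Kcnmb4 and Kcnab1 are shown by the study for its clusters and were chosen on these cells, so their direction is not independent evidence.

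**Figure D2:**
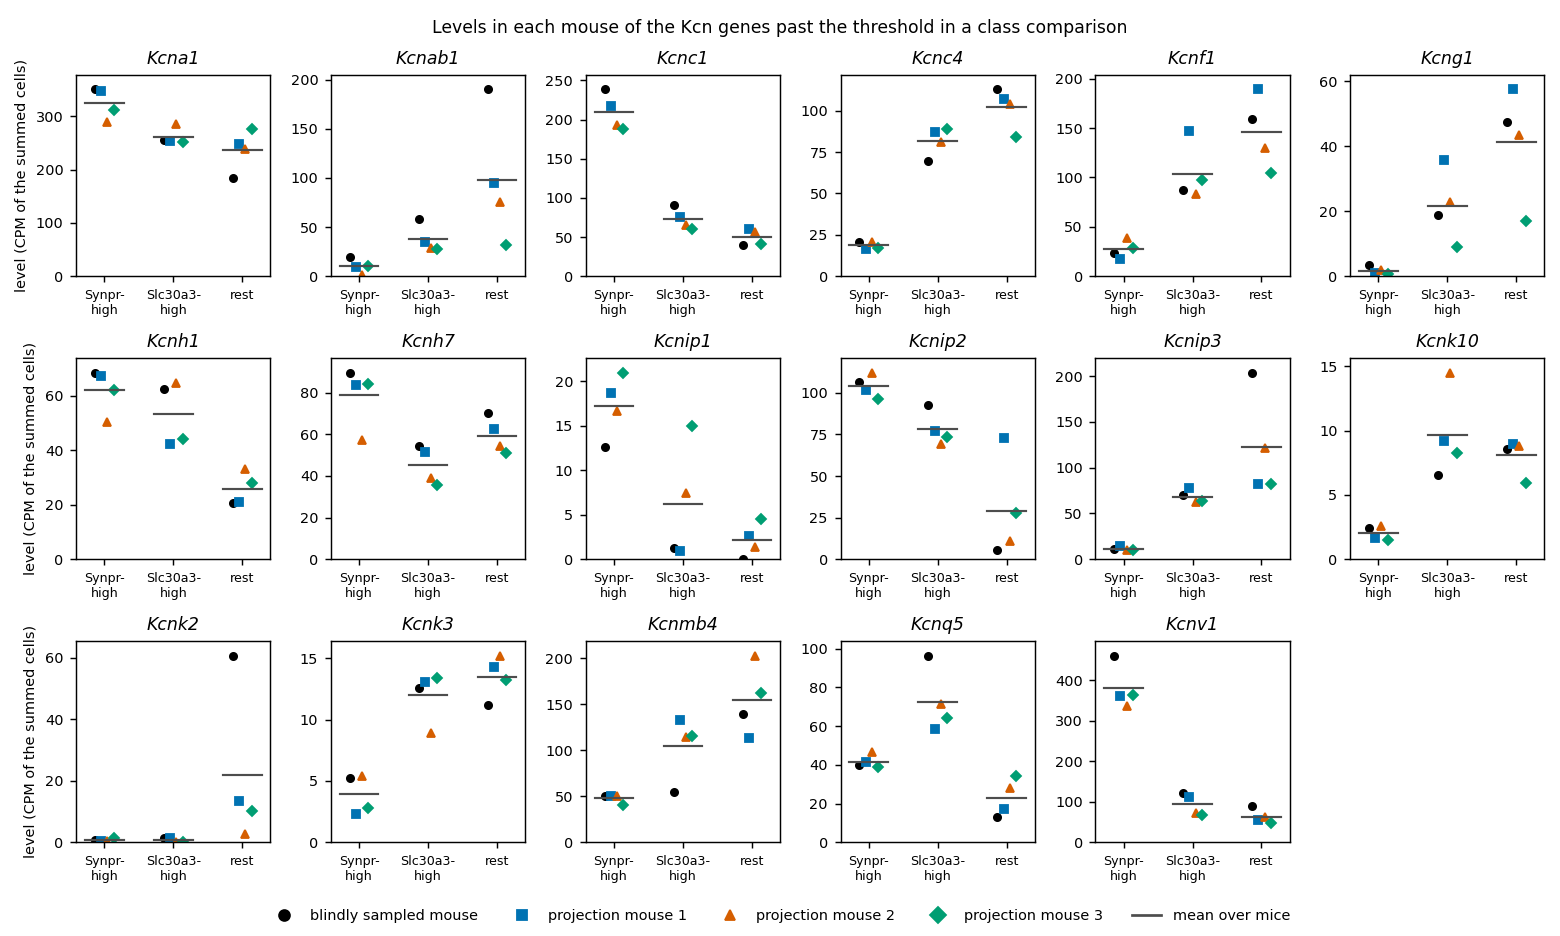
Levels (y axis, CPM of the summed cells, from 0) of the 17 Kcn genes past the threshold in at least 1 class comparison, in Synpr-high, Slc30a3-high and rest cells; each symbol is a mouse and each line the mean over 4 mice. Kcnc4, Kcnip3 and Kcnf1 were low in the Synpr-high cells of all 4 mice, whereas Kcnc1 and Kcnv1 were high.

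Within the Kcnc subfamily, whose channels open at strongly depolarized potentials and close fast, and so allow high firing rates, a pair of genes moved in opposite directions. Kcnc4 was at 20.6, 16.4, 20.8 and 16.8 CPM in the Synpr-high cells of the 4 mice. It was at 69.5, 87.0, 81.4 and 88.9 CPM in Slc30a3-high cells and at 113, 107, 104 and 84.0 CPM in the rest. All Synpr-high values thus lay below all others, and the log2 fold change was -2.14 ± 0.17 (SE) against Slc30a3-high cells (edgeR, adjusted p = 5.0e-06) and -2.46 ± 0.17 against the rest (adjusted p = 7.0e-07). Kcnc1 showed the opposite order, with 239, 217, 193 and 188 CPM in Synpr-high cells. Its level was 90.4, 75.2, 64.9 and 59.7 CPM in Slc30a3-high cells and 40.3, 60.5, 56.6 and 41.2 CPM in the rest. Kcnc1 rose by a log2 fold change of 1.53 ± 0.18 against Slc30a3-high cells (adjusted p = 1.3e-04) and of 2.07 ± 0.18 against the rest (adjusted p = 9.0e-06). Kcnc2, at 15.3 to 37.2 CPM in Synpr-high cells, 0.596 to 17.8 CPM in Slc30a3-high cells and 0.994 to 10.6 CPM in the rest, had adjusted p = 0.13 and 0.0549. Blocking on the mouse brought these to 0.00316 and 0.00186.

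The same counts are given here as the share of cells with a count, each gene taken separately. Whether both genes were counted in the same cells was not examined. With each cell thinned to 20000 counts, Kcnc4 was counted in 18.0% of 406 Synpr-high cells, 64.4% of 331 Slc30a3-high cells and 62.6% of 190 rest cells, and Kcnc1 in 83.7%, 45.9% and 36.8%. Without thinning, the shares were 31.3%, 78.3% and 73.8% for Kcnc4 and 90.6%, 60.4% and 43.5% for Kcnc1. Thinning left out 84 shallower cells, 32 Synpr-high, 28 Slc30a3-high and 24 of the rest.

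The sequences upstream of 3 of the genes that moved are shown because Kcnc4 and Kcnf1 were lower, and Kcnc1 higher, in the same cells. Each is the 250 bases before the annotated transcript start, 5′ to 3′ on the strand of the gene, from RefSeq (GRCm38.p6), with CG dinucleotides in capitals. A promoter sequence was matched for 64 of the 88 symbols. The positions are chr7:46396218-46396467 (+) for Kcnc1, chr3:107458899-107459148 (-) for Kcnc4 and chr12:17176889-17177138 (-) for Kcnf1.
Kcnc1: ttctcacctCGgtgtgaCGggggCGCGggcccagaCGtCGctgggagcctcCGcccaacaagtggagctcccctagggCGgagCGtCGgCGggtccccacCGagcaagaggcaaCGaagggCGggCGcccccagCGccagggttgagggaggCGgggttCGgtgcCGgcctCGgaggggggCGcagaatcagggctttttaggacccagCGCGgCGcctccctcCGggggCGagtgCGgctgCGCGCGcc
Kcnc4: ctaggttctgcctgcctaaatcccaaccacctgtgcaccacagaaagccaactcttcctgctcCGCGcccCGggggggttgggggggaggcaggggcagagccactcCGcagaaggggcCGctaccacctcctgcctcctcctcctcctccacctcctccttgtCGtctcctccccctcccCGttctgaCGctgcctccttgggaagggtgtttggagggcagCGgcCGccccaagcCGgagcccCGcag
Kcnf1: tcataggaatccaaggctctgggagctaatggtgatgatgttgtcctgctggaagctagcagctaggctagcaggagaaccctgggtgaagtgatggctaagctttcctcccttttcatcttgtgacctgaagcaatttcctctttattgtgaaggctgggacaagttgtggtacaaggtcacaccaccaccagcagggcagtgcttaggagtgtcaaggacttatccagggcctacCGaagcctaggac
The Kcnc1 window held 30 CG dinucleotides, that of Kcnc4 12 and that of Kcnf1 1, beside a median of 6 over the 32851 windows of the same length. On both strands, the GC box GGGCGG occurred 3 times upstream of Kcnc1, 1 time upstream of Kcnc4 and 0 times upstream of Kcnf1, and in 32.7% of all windows. The cyclic AMP response element TGACGTCA, found in 1.55% of all windows, and the NBRE AAAGGTCA, the monomer motif of the Nr4a family and found in 1.34%, were in none of the 3 windows. These are descriptions of the letters in the windows.

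Of the other voltage-gated subunits, the Kcna subfamily (axonal channels that hold back firing) and Kcnd (the fast A-type channel of dendrites) had 1 called row between them. Kcna1 was at 351, 347, 290.2 and 312 CPM in Synpr-high cells and 183, 248, 239 and 277 CPM in the rest, higher in each mouse, with a log2 fold change of 0.45 ± 0.13 (edgeR, adjusted p = 0.0428). That call was lost without any one of the 4 mice, with an adjusted p of 0.105 without the blindly sampled mouse and 0.207, 0.115 and 0.0949 without projection mice 1 to 3, and also with unlabeled cells only (0.0879) and with the plate as a block (0.0774). Kcna6 was at 58.1 to 93.3, 27.9 to 66.1 and 26.3 to 61.4 CPM in the Synpr-high, Slc30a3-high and rest cells. Synpr-high cells had the highest Kcna6 level in each mouse (adjusted p = 0.139 and 0.142, and 0.00343 and 0.00543 when blocked on the mouse). Kcnd2, the Kcnd row with the most counts, was at 124 to 155, 119.9 to 191 and 68.6 to 110.0 CPM. It lay above the rest in each mouse for both other classes, but with an adjusted p of 0.0867 for Synpr-high and 0.121 for Slc30a3-high cells. Blocked on the mouse, these were 0.0194 and 0.0265.

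The silent subunits, which alter other voltage-gated channels when they join them, had called rows in both directions. Kcnv1 was at 461, 361, 337 and 363 CPM in Synpr-high cells. In Slc30a3-high cells it was at 123, 111, 73.3 and 66.8 CPM and in the rest at 89.8, 53.8, 62.8 and 47.3 CPM. The lowest Synpr-high value was thus well above the highest of the others, and the log2 fold change was 2.03 ± 0.23 against Slc30a3-high cells (adjusted p = 1.1e-04) and 2.60 ± 0.24 against the rest (adjusted p = 1.1e-05). In thinned cells Kcnv1 was counted in 95.8% of Synpr-high, 49.8% of Slc30a3-high and 40.5% of rest cells (97.7%, 65.2% and 53.3% without thinning).

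Kcnf1 and Kcng1 went the other way. Kcnf1 was at 23.9, 17.1, 39.1 and 28.2 CPM in Synpr-high cells, 87.8, 147, 83.7 and 97.4 CPM in Slc30a3-high cells and 159, 189, 129.7 and 104 CPM in the rest, with no overlap between the Synpr-high values and the others. Its log2 fold changes were -1.94 ± 0.27 (adjusted p = 5.1e-04) and -2.42 ± 0.28 (adjusted p = 7.8e-05). Kcng1 was nearly absent from Synpr-high cells, at 3.38, 0.939, 1.81 and 0.511 CPM, and was at 18.7, 35.6, 22.8 and 8.89 CPM in Slc30a3-high cells and 47.5, 57.4, 43.6 and 16.9 CPM in the rest. The log2 fold changes of Kcng1 were -3.94 ± 0.61 (adjusted p = 0.00104) and -4.88 ± 0.63 (adjusted p = 2.1e-04). Among the other tested silent subunits, none of the remaining Kcng rows and none of the 3 Kcns rows passed; Kcns1 was at 19.0 to 32.7, 24.0 to 46.0 and 14.5 to 29.6 CPM in the 3 classes. Kcnv2 had too few counts to be tested.

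**Figure D3:**
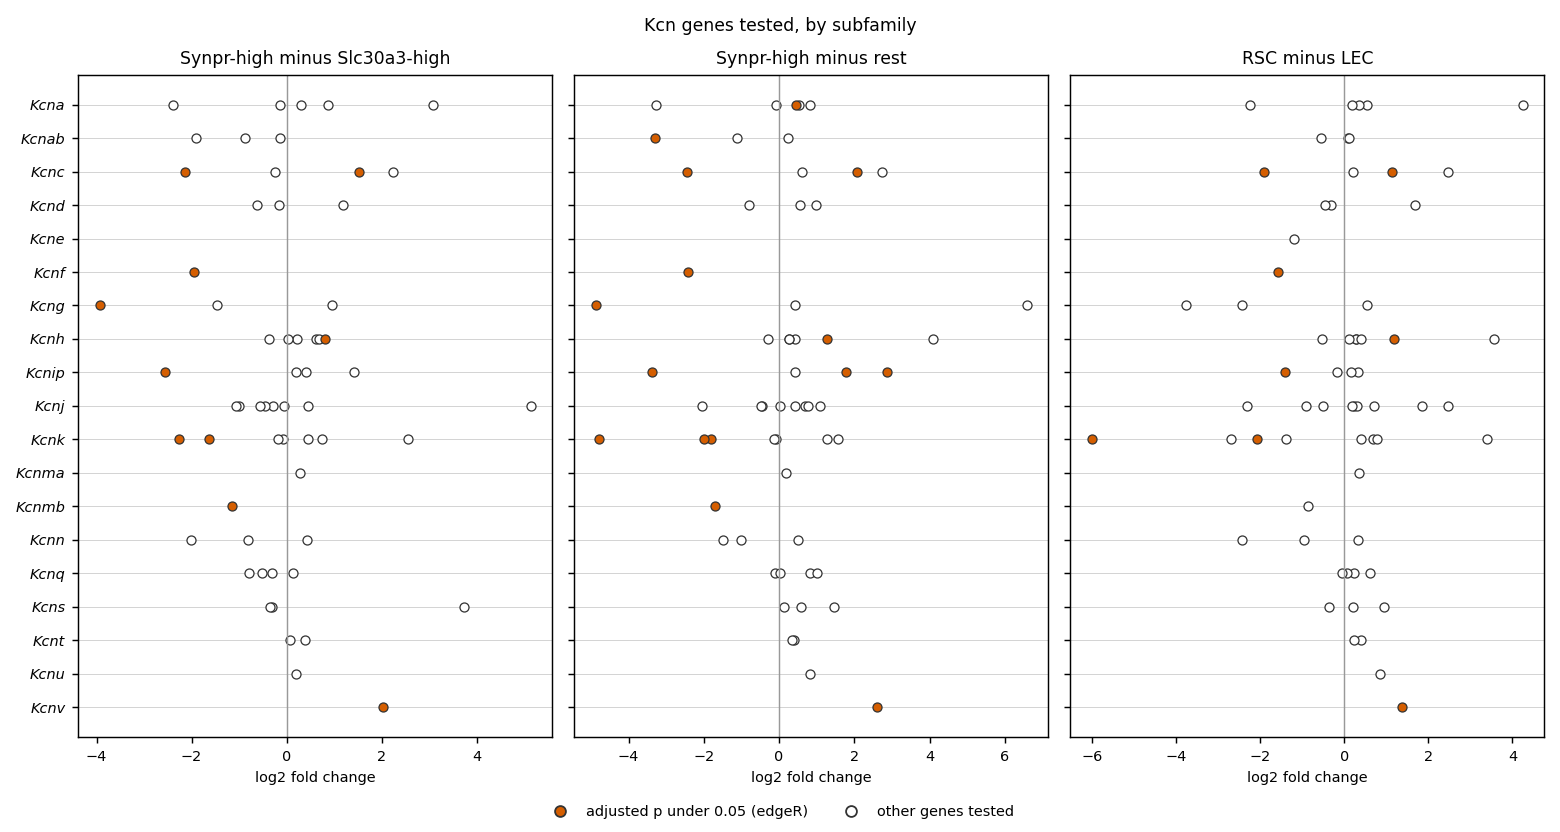
Log2 fold change (x axis) of tested Kcn rows by subfamily (y axis) for Synpr-high minus Slc30a3-high cells, Synpr-high minus rest cells and RSC minus LEC cells; filled points passed an adjusted p of 0.05 (edgeR). The Kcnc and Kcnip rows held calls on both sides of 0 in the comparison with the rest, whereas the called Kcnk rows lay below 0 in all 3 panels.

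The Kcnh subfamily, the ether-a-go-go channels, had a called row in each class comparison. Kcnh1 was at 68.5, 67.3, 50.3 and 62.1 CPM in Synpr-high cells and 20.5, 21.1, 33.0 and 27.8 CPM in the rest, higher in all 4 mice (log2 fold change 1.27 ± 0.22, edgeR adjusted p = 0.00207), while Slc30a3-high cells, at 62.6, 42.3, 64.7 and 44.1 CPM, overlapped the Synpr-high values. Kcnh7 was at 89.6, 83.9, 57.4 and 83.9 CPM in Synpr-high cells and 54.3, 51.7, 39.1 and 35.7 CPM in Slc30a3-high cells (log2 fold change 0.80 ± 0.20, adjusted p = 0.0224), and in each mouse the rest lay between, at 69.96, 62.3, 54.1 and 51.1 CPM. The Kcnh7 call did not hold without projection mouse 1, 2 or 3 (adjusted p = 0.132, 0.0589 and 0.208), nor with unlabeled cells only (0.344) or with the plate as a block (0.403). In the GENCODE annotation, exons of Kcnh7 overlap those of Gca on the opposite strand, and whether strand was used in counting is not given in the sources used here. Of the Kcnq subfamily, which carries the slow M current that limits repeated firing, no row was called for Synpr-high cells.

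Among the accessory rows of the Kcnab, Kcnip and Kcnmb subfamilies, Kcnip3 and Kcnmb4 passed against Slc30a3-high cells, and Kcnab1, Kcnip1, Kcnip2, Kcnip3 and Kcnmb4 against the rest. Kcnip3, a calcium-binding partner of Kcnd channels that is also known as a transcriptional repressor, was at 11.7, 14.6, 10.4 and 10.04 CPM in Synpr-high cells. It was at 70.4, 77.6, 62.3 and 63.3 CPM in Slc30a3-high cells and 204, 82.5, 122 and 82.0 CPM in the rest, and no Synpr-high value came near these. The log2 fold changes were -2.55 ± 0.28 (adjusted p = 7.7e-05) and -3.38 ± 0.29 (adjusted p = 7.2e-06). Its relatives Kcnip1 and Kcnip2 were instead higher in Synpr-high cells than in the rest. Kcnip2 was at 107, 101, 112 and 96.6 CPM in Synpr-high cells and 5.28, 73.0, 11.1 and 27.5 CPM in the rest (log2 fold change 1.78 ± 0.51, adjusted p = 0.0444), where projection mouse 1 stood apart from the others. The adjusted p of Kcnip2 was 0.089 when the blindly sampled mouse was left out, 0.235 without projection mouse 2, 0.224 without projection mouse 3 and 0.105 with unlabeled cells only. The Kcnip2 call was also lost when the rest held only cells with a layer 6 marker. Kcnip1 was at 12.6, 18.7, 16.7 and 21.0 CPM in Synpr-high cells and 0, 2.61, 1.32 and 4.54 CPM in the rest (log2 fold change 2.87 ± 0.82, adjusted p = 0.0434). It lost that call when any one mouse was left out (adjusted p = 0.0557 without the blindly sampled mouse and 0.125, 0.228 and 0.0887 without projection mice 1 to 3). Kcnip1 was also called without the kept cells holding Gad1 and Gad2 (adjusted p = 0.0214), but not with unlabeled cells only (0.387). Kcnip4 was at 152 to 210.0, 120.1 to 193 and 90.2 to 217 CPM in the 3 classes and did not pass against the rest (adjusted p = 0.375, and 0.0338 when blocked on the mouse).

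Kcnab1, a beta subunit of Kcna channels, followed the order of Kcnip3. It was at 19.3, 9.56, 1.40 and 10.7 CPM in Synpr-high cells, 58.7, 34.7, 28.8 and 27.8 CPM in Slc30a3-high cells and 190.1, 95.3, 75.2 and 31.5 CPM in the rest, so the mice differed most in the rest. The log2 fold change against the rest was -3.29 ± 0.64 (edgeR, adjusted p = 0.00513), and the adjusted p was 0.0692 without projection mouse 1. Against Slc30a3-high cells it was lower in 4 of 4 mice with an adjusted p of 0.0899, and 0.0126 when blocked on the mouse. Kcnab2, at 73.1 to 115, 93.4 to 133 and 61.4 to 100.2 CPM, was not called. Of the Kcne subfamily, small single-pass subunits, no row had enough counts in class sums. Kcne3, the one with the most counts, was at 0 in all but 1 of the Synpr-high sums, and its row was absent from the table of the blindly sampled mouse.

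Among channels opened by calcium or sodium, the only row called in the main tests was that of an accessory subunit. Kcnmb4, the brain beta subunit of the large-conductance Kcnma1 channel, was at 50.04, 50.1, 50.3 and 40.00 CPM in Synpr-high cells. It was at 54.8, 133, 115 and 116 CPM in Slc30a3-high cells, where the blindly sampled mouse was lowest, and at 139, 113, 203 and 162 CPM in the rest. The log2 fold change was -1.14 ± 0.25 against Slc30a3-high cells (adjusted p = 0.0109) and -1.70 ± 0.25 against the rest (adjusted p = 6.5e-04), and the first was not called without projection mouse 1, 2 or 3 (adjusted p = 0.0915, 0.0827 and 0.152). In the GENCODE annotation, genes on the opposite strand overlap exons of Kcnmb4, as also of Kcnab1, Kcnk2, Kcnk3 and Kcnq5. The same holds for Kcne3, Kcnip4, Kcnj9, Kcnk1, Kcnma1 and Kcnn1, and exons of Kcnab2 overlap those of Gm16334 on the same strand. The pore gene Kcnma1 was at 152 to 217, 116 to 181 and 109.8 to 185 CPM in the 3 classes and passed neither test (adjusted p = 0.533 and 0.731). Kcnn1, of the small-conductance channels behind the afterhyperpolarization, was at 7.23 to 17.5, 11.3 to 31.0 and 13.1 to 40.5 CPM and was not called. The sodium-activated Kcnt1, at 89.9 to 118, 77.2 to 89.5 and 45.5 to 97.4 CPM, was not called either, although the Synpr-high values lay above all Slc30a3-high values (adjusted p = 0.361). Among the alternative runs, Kcnt1 was called against Slc30a3-high cells only when the blindly sampled mouse was left out. Kcnu1, known mainly as a channel of sperm, was at 4.60 to 14.4, 4.70 to 12.2 and 1.32 to 11.3 CPM.

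The tandem-pore Kcnk subfamily, whose channels leak potassium at rest, had called rows in 1 direction. Kcnk3, an acid-sensitive member, was at 5.22, 2.27, 5.42 and 2.81 CPM in Synpr-high cells, 12.6, 13.1, 8.94 and 13.4 CPM in Slc30a3-high cells and 11.2, 14.3, 15.2 and 13.2 CPM in the rest. Kcnk10, a member opened by stretch and lipids, was at 2.46, 1.66, 2.55 and 1.46 CPM in Synpr-high cells, at 6.52, 9.17, 14.5 and 8.26 CPM in Slc30a3-high cells and at 8.58, 8.98, 8.78 and 5.92 CPM in the rest. Both were lower in the Synpr-high cells of all 4 mice, without overlap. For Kcnk3 the log2 fold changes were -1.64 ± 0.37 (adjusted p = 0.0136) and -1.81 ± 0.37 (adjusted p = 0.00662), and for Kcnk10 -2.27 ± 0.43 (adjusted p = 0.00478) and -2.01 ± 0.43 (adjusted p = 0.00866). These 4 calls were lost without projection mouse 1 (adjusted p = 0.133, 0.0726, 0.063 and 0.0962) and without projection mouse 3 (0.161, 0.0814, 0.0509 and 0.0629). They were also lost with unlabeled cells only (0.575, 0.0829, 0.267 and 0.421). With the plate as a block, Kcnk3 was lost in both comparisons (0.198 and 0.13) and Kcnk10 against the rest (0.0928). With class limits of 100 CPM of Synpr and 10 CPM of Slc30a3, both Kcnk10 calls were lost (0.0567 and 0.0762).

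Kcnk2, a close relative of Kcnk10, was found almost only in the rest. It was at 0.614, 0.497, 0.246 and 1.53 CPM in Synpr-high cells, 1.30, 1.46, 0 and 0 CPM in Slc30a3-high cells and 60.7, 13.5, 2.82 and 10.3 CPM in the rest, where the blindly sampled mouse was the highest. The rest of that mouse also had the most Ctgf, a layer 6b marker, at 203, 15.6, 25.3 and 8.67 CPM over the 4 mice. The order differed in the projection mice, where projection mouse 2 had the most Ctgf but the least Kcnk2. Whether Kcnk2 goes with Ctgf was not tested. Against the rest the log2 fold change in Synpr-high cells was -4.79 ± 1.27 (edgeR, adjusted p = 0.0291), and leaving out any mouse ended the call (adjusted p = 0.184 without the blindly sampled mouse and 0.116, 0.055 and 0.0523 without projection mice 1 to 3). Kcnk1, the Kcnk row with the most counts, was at 141 to 168, 135 to 187 and 143 to 181 CPM in the 3 classes. No row of the Kcnj subfamily, the inward rectifiers, was called in 8 tested. Kcnj9, a subunit gated by G proteins, was at 63.5, 145, 161 and 136 CPM in Synpr-high cells and 59.4, 79.7, 75.0 and 101 CPM in the rest (adjusted p = 0.206, and 0.0229 when blocked on the mouse). Kcnrg, a soluble regulator, did not exceed 0.876 CPM in any class sum.

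Genes for proteins that bind potassium channels were also counted, from a list of 20 of which 16 were tested. Against Slc30a3-high cells 0 of these were higher and 1 lower in Synpr-high cells, and against the rest 1 was higher and 2 lower, beside the 6.71% and 8.97% of all genes called in these comparisons. Dpp10, an auxiliary subunit of Kcnd channels, was at 8.90, 7.40, 12.4 and 8.50 CPM in Synpr-high cells, 74.3, 53.5, 69.1 and 47.3 CPM in Slc30a3-high cells and 74.6, 97.4, 97.0 and 104 CPM in the rest, with log2 fold changes of -2.71 ± 0.22 (adjusted p = 5.5e-06) and -3.33 ± 0.23 (adjusted p = 7.0e-07). Lgi1, a secreted protein that binds Adam22, was lower in Synpr-high cells than in the rest (log2 fold change -0.88 ± 0.21, adjusted p = 0.0165), and its receptor Adam22 was higher (0.77 ± 0.18, adjusted p = 0.0167). The median log2 fold change of the tested partners was 0.015 against Slc30a3-high cells and -0.034 against the rest.

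Slc30a3-high cells differed from the rest in few channel genes. Of the 61 rows 2 were called, both higher in Slc30a3-high cells, beside 0.778% of all genes tested (0.298% higher and 0.481% lower). Kcnq5, a subunit of the M current, was at 96.5, 58.4, 71.5 and 64.3 CPM in Slc30a3-high cells and 13.2, 17.3, 27.8 and 34.0 CPM in the rest, with no overlap (log2 fold change 1.63 ± 0.27, edgeR adjusted p = 0.0104). In Synpr-high cells Kcnq5 was between, at 39.9, 41.3, 46.8 and 38.6 CPM, and above the rest in each mouse (adjusted p = 0.0692, and 0.0481 when blocked on the mouse). The other call was Kcnh1, with the values given above (log2 fold change 1.05 ± 0.22, adjusted p = 0.0375). Kcnq5 was not called without projection mouse 1 or 2 (adjusted p = 0.101 and 0.1), and Kcnh1 without the blindly sampled mouse or projection mice 1, 2 or 3 (0.167, 0.17, 0.12 and 0.169). Kcnh1 was also lost with unlabeled cells only (adjusted p = 0.102) and with the plate as a block (0.0744). Blocked on the mouse, 4 rows were called, beside 267 of 13104 genes. Those added were Kcnd2, higher in Slc30a3-high cells, and Kcnk2, lower in them (edgeR, adjusted p = 0.0352). No partner gene of the 16 passed, and 1 had an unadjusted p under 0.05 (edgeR), beside 10.1% of all genes.

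The second question was whether channel genes differed with the projection target. The labels and the classes were not independent, since 213 of the 247 RSC cells were Synpr-high and 183 of the 286 LEC cells were Slc30a3-high. Of 65 Kcn rows tested, 8 were called, 3 higher and 5 lower in RSC cells, beside 3.95% of all 13976 genes (1.89% higher and 2.06% lower). The median log2 fold change was 0.20 over the 65 rows and -0.0012 over all genes. No partner gene of the 16 was called, with 3 at an unadjusted p under 0.05 (edgeR), beside 16.4% of all genes.

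**Figure D4:**
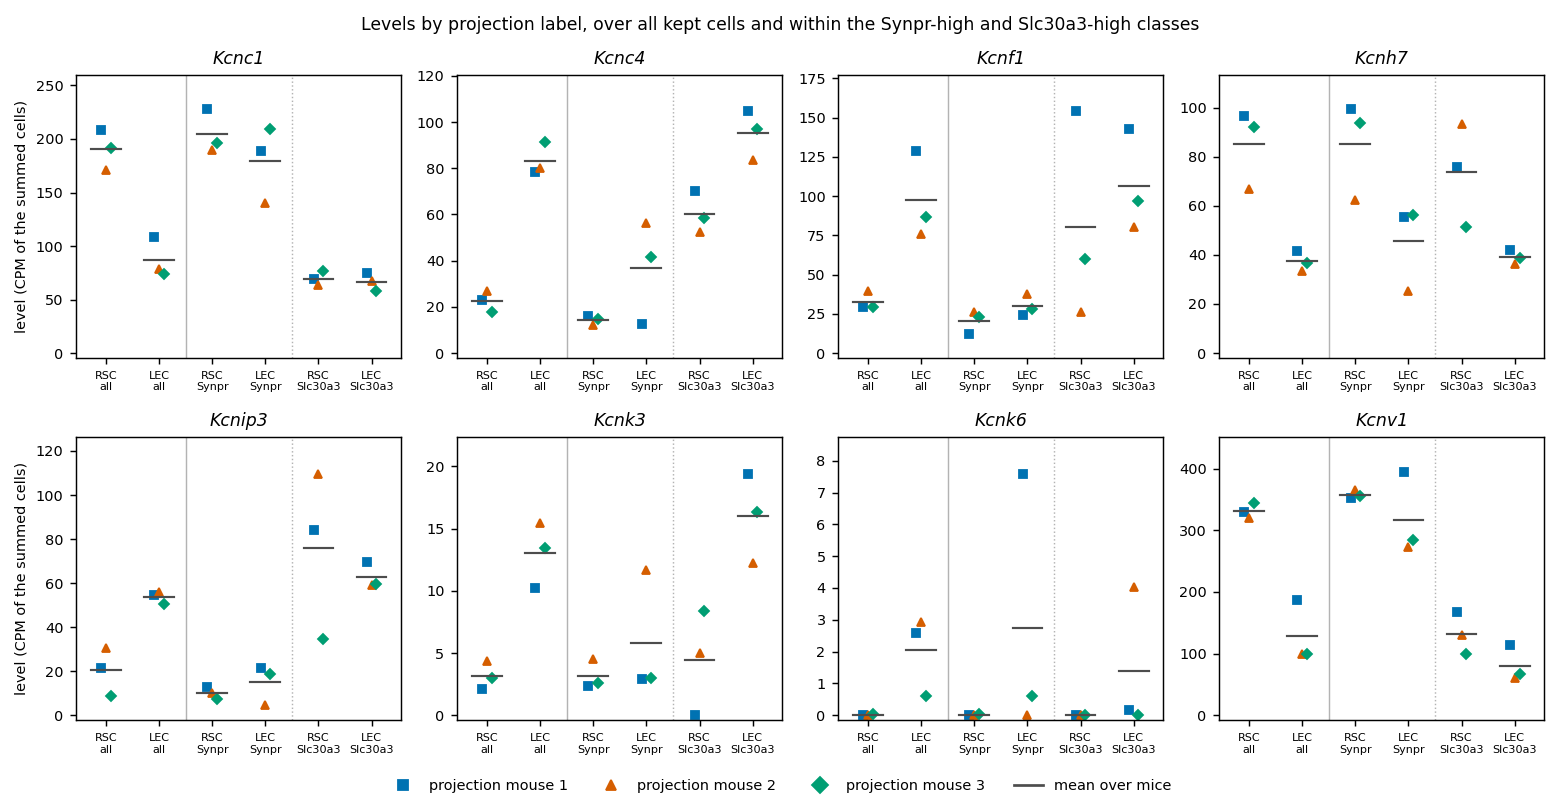
Levels (y axis, CPM of the summed cells, from 0) of the 8 Kcn genes past the threshold between RSC and LEC cells, in all RSC and LEC cells (left of the solid line) and within Synpr-high and Slc30a3-high cells; symbols are projection mice 1 to 3 and lines their mean. Kcnv1, Kcnc1 and Kcnh7 were higher, and Kcnc4, Kcnf1, Kcnip3, Kcnk3 and Kcnk6 lower, in the RSC cells of all 3 mice, and within the classes the RSC and LEC values lay closer for Kcnc1 and Kcnv1.

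Kcnc4 was at 22.8, 26.8 and 17.7 CPM in the RSC cells and 78.4, 79.9 and 91.4 CPM in the LEC cells of projection mice 1 to 3. The log2 fold change was -1.90 ± 0.22 (edgeR, adjusted p = 0.00172), and it was the 1 row called under each alternative. Kcnc1 was at 209, 171 and 192 CPM in RSC cells and 109, 78.5 and 73.6 CPM in LEC cells (log2 fold change 1.13 ± 0.16, adjusted p = 0.00392). So the opposite changes of these relatives were found between labels as between classes. The silent subunit Kcnv1 was at 329, 320.0 and 344 CPM in RSC and 187, 98.6 and 98.6 CPM in LEC cells (1.37 ± 0.25, adjusted p = 0.0137). Kcnf1 was at 29.4, 39.5 and 29.2 CPM in RSC and 129, 76.0 and 86.6 CPM in LEC cells (-1.58 ± 0.24, adjusted p = 0.00523). Kcnh7 was at 96.5, 66.9 and 92.0 CPM in RSC and 41.6, 33.5 and 36.9 CPM in LEC cells (1.19 ± 0.20, adjusted p = 0.00828). For none of these 5 genes did the values of the labels overlap.

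Kcnip3, at 21.6, 30.7 and 8.94 CPM in RSC and 54.4, 55.9 and 50.3 CPM in LEC cells, was lower in RSC cells of each mouse (log2 fold change -1.41 ± 0.34, edgeR adjusted p = 0.0438). Kcnk3 was at 2.08, 4.32 and 2.96 CPM in RSC and 10.2, 15.4 and 13.5 CPM in LEC cells (-2.07 ± 0.46, adjusted p = 0.0291, and 0.0572 when blocked on the mouse). Kcnk6, another leak channel gene, rested on very few cells. It had 1 count in RSC cells and 87 in LEC cells, a ratio of LEC to RSC levels of 73.1 (exact 95% counting interval 12.8 to 2920.1). In each mouse 1 cell held most of the LEC counts, at 34 of 38, 32 of 36 and 11 of 13. The interval takes each count as independent, so it leaves out the spread between cells and mice and is too narrow. The edgeR adjusted p of Kcnk6 was 0.0297, and 0.0723 when blocked on the mouse. The block instead brought in Kcnc2, Kcng1 and Kcnmb4 (adjusted p = 0.0185, 0.0295 and 0.0478). Kcng1 was at 4.40, 6.49 and 3.17 CPM in RSC and 37.8, 29.9 and 6.60 CPM in LEC cells, and Kcnmb4 at 56.9, 83.6 and 40.8 CPM in RSC and 102, 107 and 117 CPM in LEC cells.

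Fewer rows were called with 2 of the 3 mice. Without projection mouse 1, 5 rows were called (Kcnc1, Kcnc4, Kcnf1, Kcnh7 and Kcnv1), and without projection mouse 2 or 3 only Kcnc4 was called among the Kcn rows. Over all genes the calls fell likewise, from 552 to 391, 63 and 59. The adjusted p of Kcnc1, Kcnf1, Kcnh7 and Kcnv1 was 0.0758, 0.0538, 0.0619 and 0.18 without projection mouse 2, and 0.117, 0.0982, 0.187 and 0.169 without projection mouse 3. Kcnip3, Kcnk3 and Kcnk6 were lost without any one of the mice, with adjusted p of 0.196, 0.0916 and 0.2 without projection mouse 1, 0.107, 0.112 and 0.243 without projection mouse 2 and 0.155, 0.297 and 0.19 without projection mouse 3. Without the cells holding Gad1 and Gad2, 3 of which were RSC-labeled, the same 8 rows were called, beside 579 of 13952 genes.

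Plate 12 allowed RSC and LEC cells to be set side by side on 1 plate of 1 mouse, with no test. There Kcnc4 was at 17.5 CPM in RSC and 72.3 CPM in LEC cells, Kcnf1 at 20.7 and 78.3 CPM, and Kcnip3 at 11.5 and 35.0 CPM. Kcnk3 was at 2.03 and 8.52 CPM. The genes higher in RSC cells kept their direction as well, with Kcnc1 at 218 and 86.4 CPM, Kcnv1 at 304 and 137 CPM and Kcnh7 at 111 and 47.3 CPM. Kcnk6 had 1 count in RSC and 2 in LEC cells of this plate, and Kcng1 had the opposite direction to that in all cells, at 6.51 CPM in RSC and 3.25 CPM in LEC cells. Without plate 12, 7 rows were called, all but Kcnip3 (adjusted p = 0.0533), beside 511 of 13798 genes.

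RSC and LEC cells were then compared within each class. Within Synpr-high cells 0 of 55 Kcn rows were called by edgeR, beside 0% of all 12328 genes. At an unadjusted p under 0.05 there were 7 Kcn rows (12.7%), against 3.26% of all genes, and DESeq2 called 1 (Kcnab1), beside 0.0811% of all genes. Within Slc30a3-high cells 0 were called by edgeR, beside 0.292% of all genes. There, 8 Kcn rows (14.5%) and 13.5% of all genes had an unadjusted p under 0.05, and DESeq2 called 4 (Kcnc2, Kcnip1, Kcnj9 and Kcnk1), beside 3.71% of all genes. These sums held between 6 and 105 cells. The difference between both effects was also tested, and 0 rows were called by edgeR, beside 0.0649% of genes, with 5 (9.09%) at an unadjusted p under 0.05, as had 9.34% of all genes. DESeq2 called 0 rows there, beside 0.941% of genes.

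Within the classes, Kcnc1 and Kcnv1 differed more between classes than between labels. In Synpr-high cells Kcnc1 was at 228, 190.1 and 196 CPM under the RSC label and 189, 141 and 209 CPM under the LEC label. In Slc30a3-high cells it was at 68.8, 63.6 and 76.4 CPM (RSC) and 74.4, 67.5 and 57.6 CPM (LEC), so the labels overlapped in both classes. Kcnv1 was at 352, 366 and 355 CPM (RSC) and 394, 274 and 285 CPM (LEC) in Synpr-high cells. It was at 167, 129.7 and 99.1 CPM (RSC) and 115, 60.1 and 67.0 CPM (LEC) in Slc30a3-high cells, higher with the RSC label in each mouse there. For Kcnc4, the Slc30a3-high cells had 70.1, 52.4 and 58.5 CPM (RSC) and 105, 83.5 and 97.1 CPM (LEC), without overlap. The Synpr-high cells had 16.2, 11.9 and 14.6 CPM (RSC) and 12.7, 56.3 and 41.7 CPM (LEC), with projection mouse 1 alone higher in RSC cells. Kcnh7 had higher values in RSC cells of each mouse within both classes. These were 99.4, 62.5 and 93.9 CPM (RSC) against 55.3, 25.1 and 56.0 CPM (LEC) in Synpr-high cells (edgeR, adjusted p = 1). They were 75.8, 93.5 and 51.4 CPM (RSC) against 42.0, 36.2 and 38.8 CPM (LEC) in Slc30a3-high cells (adjusted p = 0.294). The smallest adjusted p of a Kcn row within a class was that of the leak channel gene Kcnk1. In Slc30a3-high cells it was at 287, 234 and 320.1 CPM (RSC) and 181, 126 and 117 CPM (LEC), with a log2 fold change of 0.99 ± 0.21 (edgeR, adjusted p = 0.0787). In Synpr-high cells its values overlapped, at 182, 140.5 and 154 CPM (RSC) and 136, 147 and 124 CPM (LEC).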

How the data were processed

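Cells were harvested by hand into plates, and barcoded 3′ libraries were aligned by the authors with STAR. The version, annotation and use of strand are not given in the sources used here; the submitters' processing notes name NCBIM37 and Seurat. The authors deposited 2 tables of raw counts per gene and cell and 2 tables of each cell's animal and label. Reads carried molecular identifiers, and whether the deposited counts are reads or identifiers is not stated outright in the sources used here. The paper gives the depth of the kept cells in reads per cell. Its mean is of similar size to the deposited totals (median 122797 counts per kept cell), which points to reads. The interval for Kcnk6 covers counting error at most. For reads it does not cover even that, because reads of the same molecule are not independent. The 164 spike-in entries were left out.

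Counts were summed per mouse and class or label (sums of at least 5 cells) and tested with edgeR 4.0.16 in R 4.3.3 (quasi-likelihood F test after TMM scaling and filterByExpr, with Benjamini-Hochberg adjustment over all genes and a threshold of 0.05), with DESeq2 1.42.0 as an alternative. Levels are CPM with TMM factors. The class limits and the levels on plate 12, in left-out cells and in all kept cells are CPM without these factors. The ratio for Kcnk6 used none either. Levels in left-out cells and in all kept cells were pooled over mice. All class sums were fitted together, as were RSC, LEC and unlabeled sums. The steps were tested on simulated data. Sums of 1 mouse come from the same animal, and their deviations from group means correlated with a median of 0.187 over 12 pairs of class sums (range 0.142 to 0.590), 0.045 over label sums and 0.031 within classes; the mouse as a block was an alternative. Doublets were not called because cells were picked singly.

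Genes named are all called Kcn rows (up to 12 by size of change in a class comparison, 8 by label), the row with most counts in each subfamily and 8 rows that the study shows for its clusters (Kcnv1, Kcnk2, Kcnc1, Kcnc4, Kcnf1, Kcnip3, Kcnmb4 and Kcnab1). These 8 were chosen by the study on these cells and are not independent evidence. Kcna6, Kcnc2 and the genes called by DESeq2 within classes were named after their values were seen. The members and lists were chosen with earlier results of these data known. The alternatives without plate 12, with plates as a block, with unlabeled cells only and without cells holding Gad1 and Gad2 were added after the data were seen.
P-values of the main tests rest on the spread among sums, from 4 mice for the classes and 3 mice for the labels, also within classes. Without the mouse as a block, sums of the same mouse were treated as independent, although they correlated as given above. No column was left unmapped. Some Kcn rows are not reported here.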

Additional observations from a re-analysis of the deposited data

Results flagged for a closer look

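In 10 of 96 groups of 4 mice, over 32 named genes and 3 classes, 1 mouse stood apart from the others by Dixon's criterion. Chance alone meets it in about 1 of 20 groups of normally distributed values. That rate does not hold for groups at or near 0, as 3 of the 10 were. Kcna1 was at 286 CPM in the Slc30a3-high cells of projection mouse 2, and at 253 to 256 CPM in the other mice. In Synpr-high cells, Kcnab2 was at 73.1 CPM in the blindly sampled mouse, against 111 to 115 CPM in the others. Kcnd2 was at 155 CPM in Synpr-high cells of projection mouse 1, against 124 to 129 CPM. Kcnmb4 was at 39.997 CPM in Synpr-high cells of projection mouse 3, against 50.04 to 50.3 CPM. In the rest, Kcnk10 was at 5.92 CPM and Kcnma1 at 109.8 CPM in projection mouse 3, each below the other mice. Kcnt1 was at 45.5 CPM in the rest of the blindly sampled mouse, below the others. Kcne3 (1.79 CPM, Synpr-high cells, projection mouse 3), Kcnk6 (3.11 CPM, Slc30a3-high cells, projection mouse 2) and Kcnrg (0.195 CPM, Slc30a3-high cells, projection mouse 1) stood above mice at or near 0, and these 3 rows were absent from the table of the blindly sampled mouse.

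The Kcn rows also had counts in cells outside the comparisons. In the 4 left-out cells with counts of both Gad1 and Gad2, from 3 mice, they summed to 2143 CPM, against 2832 CPM in the kept cells.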

How the results depend on the processing

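The log2 fold changes of the called genes kept their direction in all 530 repeats under alternative settings, and 85 of these no longer passed the threshold. For Slc30a3-high cells against the rest, 2 Kcn rows were called as reported, beside 102 of all genes. There were 5 with DESeq2 (374 of all genes) and 4 with the replicate block, the mouse (267). When the rest held only cells with a layer 6 marker, 4 were called (247 of all genes). Thinned cells gave 1 (121), the higher and the lower class limits 1 each (92 and 104), and unlabeled cells only 1 (136). For RSC against LEC, DESeq2 called 15 rows in place of 8, and 1145 in place of 552 of all genes. Within Synpr-high cells DESeq2 called 1 and within Slc30a3-high cells 4, in place of 0. Over all genes it called 10 in place of 0 and 457 in place of 36. Leaving out 1 mouse gave 6 to 15 rows for Synpr-high against Slc30a3-high cells, 9 to 17 for Synpr-high cells against the rest, 0 to 1 for Slc30a3-high cells against the rest and 1 to 5 for RSC against LEC. Over all genes these ranges were 351 to 1048, 502 to 1314, 12 to 76 and 59 to 391. The cause of these changes was not tested. The block changed no call of a gene named in the text other than those given beside the results. The RSC sums of the Slc30a3-high class held 6 to 9 cells each, and the part of this in the counts was not tested.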

Other observations

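In the 4 left-out cells with counts of both Gad1 and Gad2, markers of inhibitory neurons, the Kcn rows differed in level from the 1011 kept cells, with no test because so few cells were at hand. Kcnip1 was at 201 CPM, with counts in 3 of the 4 cells, against 12.5 CPM in the kept cells. Kcnc1 was at 207 CPM against 126 CPM. Kcnv1 and Kcnip3 had 0 counts in these 4 cells, and were at 206 and 47.5 CPM in the kept cells.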
